A study of Mus musculus with 4 samples.

Results

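The 9 myelin genes Mbp, Mobp, Mal, Mag, Mog, Cldn11, Opalin, Cnp and Fa2h were followed through a spatial count table of the mouse brain. They were taken by symbol, and all 9 symbols were among its 19465 genes. The brains came from 2 wild-type mice and 2 mice heterozygous for Celsr3, with no treatment. Strain, age, sex and the kind of Celsr3 allele are not given in the sources used here. The tissue was formalin-fixed and paraffin-embedded, sections were coronal at the level of the striatum, and Visium CytAssist probe libraries (version 2) gave counts per spot.

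The spots carry 4 barcode endings, called sets 1 to 4 here. No ending matches a label, so no set was tied to an animal or genotype and no genotypes were compared. Each set is 1 library, and values are given per set with 95% intervals that cover counting error only, with no test. The sets held 3055, 2808, 3445 and 3294 spots and 174761560, 109663162, 165185177 and 90752475 counts, and lists of values below run from set 1 to set 4. A spot is a small piece of tissue that can hold several cells, so fewer oligodendrocytes and less RNA per oligodendrocyte cannot be told apart.

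Myelin is the stack of membrane that oligodendrocytes wrap around axons in the brain and spinal cord, and bundles of myelinated axons form the white matter. Mbp and Mobp are basic proteins of compact myelin, where Mbp holds the cytoplasmic faces of the membrane together, and Mal is a proteolipid of myelin involved in membrane sorting. Mag faces the axon, Mog lies on the outer surface of the sheath, Cldn11 forms its tight junctions and Opalin is a membrane protein of oligodendrocytes. Cnp is a phosphodiesterase found in the cytoplasmic channels of myelin, and Fa2h hydroxylates the fatty acids of myelin galactolipids. SOX10 and MYRF are transcription factors known to drive myelin genes in oligodendrocytes.

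Because the members shared their pattern over the section, the bases before their starts were searched on both strands for the SOX core letters CTTTGT and the MYRF letters CTGGCAC. RefSeq windows (GRCm38.p6) were used for 7 of the 9 members, and Mbp and Fa2h are named only. The windows printed are those of Mobp, which had the widest span between areas in set 2, of Mag, which held both motifs, and of Mal, which differed most between sets. Each is the 250 bases before an annotated start, 5′ to 3′ on the gene's strand, with motif matches in capitals.
Mobp (chr9:120149492-120149741, plus strand): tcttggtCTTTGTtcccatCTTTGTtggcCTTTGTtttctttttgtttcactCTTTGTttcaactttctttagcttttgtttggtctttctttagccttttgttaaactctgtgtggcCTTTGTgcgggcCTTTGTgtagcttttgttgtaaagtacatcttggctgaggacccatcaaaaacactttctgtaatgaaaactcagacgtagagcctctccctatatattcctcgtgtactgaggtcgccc
Mag (chr7:30914923-30915172, minus strand): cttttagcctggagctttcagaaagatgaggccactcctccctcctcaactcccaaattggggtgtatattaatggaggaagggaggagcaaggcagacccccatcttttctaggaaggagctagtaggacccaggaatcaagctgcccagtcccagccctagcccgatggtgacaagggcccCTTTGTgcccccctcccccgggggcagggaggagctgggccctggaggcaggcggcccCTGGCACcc
Mal (chr2:127656696-127656945, minus strand): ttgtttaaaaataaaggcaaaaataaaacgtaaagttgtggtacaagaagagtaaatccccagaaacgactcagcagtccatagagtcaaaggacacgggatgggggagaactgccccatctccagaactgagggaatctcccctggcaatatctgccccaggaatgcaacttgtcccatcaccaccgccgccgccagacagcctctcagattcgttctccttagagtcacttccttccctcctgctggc

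The Mobp window held 6 matches to the SOX core. Of 32544 windows of this length 16.5% held at least 1, 0.138% held at least 3, and 1 held at least 6, that of Mobp. The Mag window printed held 1 match to each motif, and 4.21% of all windows held the MYRF letters. Mag had other windows, which overlap the annotated gene, and that at chr7:30914322-30914571 held neither motif. Cnp, whose window overlaps its annotated gene, held 1 of each and Opalin 1 SOX core, while Mal, Mog and Cldn11 held neither. In all, 4 of the 7 members with a window held the SOX core and 2 the MYRF letters. No matches of the motifs overlapped in these windows, and a match of letters is a description, not a site of binding.

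White matter was found without the members. Clusters of spots were made with the 9 genes and the other oligodendrocyte genes listed left out, and were named from marker genes. Of 12601 spots, 820 were white matter, 295, 140, 166 and 219 in the sets, or 9.66% (8.63 to 10.8), 4.99% (4.21 to 5.86), 4.82% (4.13 to 5.59) and 6.65% (5.82 to 7.55) of each set's spots. All 10 white matter markers, among them the myelin gene Ermn, were at least 2-fold higher there in every set. Neuron markers, summed, stood at 0.259, 0.395, 0.313 and 0.383 of their level in other spots. A white matter spot had a median of 32509, 21446, 21860.5 and 16773 counts, fewer than the 54980.5, 38986, 46105 and 27232 of other spots.

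In white matter the 9 members took 7.64%, 6.21%, 5.33% and 6.20% of all counts. In cortical layer 2/3, the named area where each was lowest, they took 0.142%, 0.0928%, 0.123% and 0.153%. All 9 were at least 2-fold higher in white matter than in other spots in every set, a rule met by 7.48%, 6.05%, 7.53% and 5.72% of the genes whose average level reached 10 CPM (counts per 1000000 counts of the area). The members' median log2 ratio was 3.11, 3.39, 3.20 and 2.997, against -0.17, -0.11, -0.09 and -0.11 over all these genes.

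Mbp stood at 39398, 36918, 25851 and 36772 CPM in white matter and at 4975, 3824, 3091 and 5034 CPM in other spots. Its ratios were 7.92 (7.89 to 7.95), 9.65 (9.59 to 9.72), 8.36 (8.31 to 8.42) and 7.30 (7.26 to 7.35), so the sets differed from each other by more than counting error. Mobp was at 13290.5, 9009, 9117 and 9085 CPM against 1596, 893, 989 and 1197 CPM, or 8.33, 10.1, 9.22 and 7.59 times higher. Its white matter level was high in set 1 and close together in the other sets.

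Mal had the highest ratio of the 9 beyond counting error in set 3, at 11.2 (11.02 to 11.4). In sets 2 and 4 it was at 11.5 (11.2 to 11.8) and 8.33 (8.14 to 8.52), and its intervals overlapped, among others, those of Cldn11, at 11.3 (10.996 to 11.5) and 8.13 (7.95 to 8.32). In set 1 it was at 9.001 (8.91 to 9.09), with Opalin at 9.18 (8.96 to 9.41), and these intervals overlap. Among all genes Mal ranked 6, 2, 5 and 4 for this ratio. Cnp, at 7.57, 9.56, 8.33 and 7.06 and at ranks 35, 23, 35 and 34, was the lowest of the 9 beyond counting error in sets 1 and 4, while in sets 2 and 3 its interval overlapped that of Mbp.

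The surface and junction proteins lay between. Mag was 7.75 to 10.5 times higher in white matter, Mog 8.002 to 10.3 times and Cldn11 8.13 to 11.3 times. Opalin stood at 1012, 791, 694 and 662 CPM against 110.2, 71.9, 69.4 and 82.9 CPM. The lipid enzyme Fa2h stood at 1026, 926, 753 and 1034 CPM against 118, 84.7, 81.9 and 129.5 CPM. Over all 9 the ratios ran from 7.06 (Cnp, set 4) to 11.5 (Mal, set 2), and for each gene set 2 gave the highest and set 4 the lowest.

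**Figure D1:**
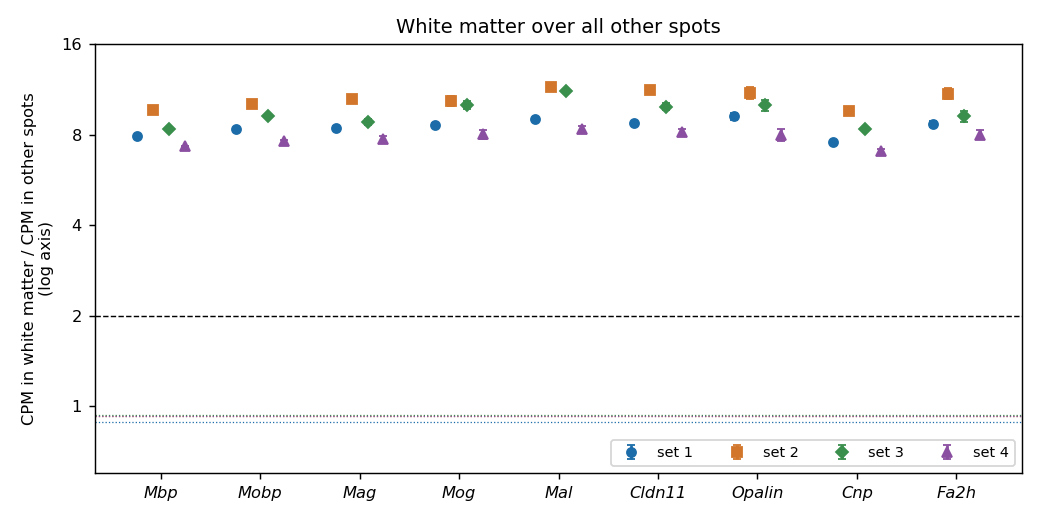
Ratio of CPM in white matter to CPM in all other spots of the same set (log axis) for the 9 genes, with 95% counting intervals; colours and marks are the 4 barcode sets, the dashed line is 2-fold and the dotted lines are the medians over all genes. All points lie between 7.06 and 11.5.

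Against the cortex alone the members were 10.4 to 14.5 times higher in white matter, where 12.7%, 10.2%, 12.1% and 11.1% of all genes were at least 2-fold higher. Against the striatum they were 5.41 to 8.99 times higher, with 11.9%, 11.8%, 12.7% and 11.3% of all genes past the rule. Set 4 gave the lowest ratio to the striatum for each member, and its striatum was the area of highest Mbp among the 4 striata.

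White matter itself was made of 2 clusters. Cluster 10, led by the astrocyte filament gene Gfap and by Thbs4, held 208, 63, 115 and 56 spots, and cluster 14, led by the iron carrier gene Trf, held 87, 77, 51 and 163. Mbp was at 43219.6, 52667, 27509 and 40006 CPM in the former and at 31667, 26015, 21224 and 35818 CPM in the latter, so cluster 10 was higher in each set. Over single white matter spots of set 1, Mbp ran from 10316 to 80782 CPM with a median of 41694. In set 3 it ran from 6290.1 to 46636 CPM with a median of 26233, the lowest of the sets.

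The order of the areas was much the same for all 9 genes. In all 36 pairs of gene and set white matter was the highest named area and layer 2/3 the lowest. Layer 6b and the basal forebrain took the places after white matter among named areas. Clusters with no area name were left out. Of these, cluster 15 had more Mbp than layer 6b and the basal forebrain in sets 1, 3 and 4. The ratio of white matter to layer 2/3 ran from 29.4 (Cnp, set 4) to 102 (Mobp, set 2), and 13.8%, 11.7%, 12.8% and 13.4% of all genes were at least 2-fold higher in white matter in this comparison. For Mbp it was 50.4, 65.7, 38.2 and 39.9. Of 396 steps between neighbours in these orders 69 were within counting error, for example between layer 5 and choroid plexus or between layer 4 and meninges. In set 4 meninges and layer 2/3 could not be ordered for Mag, Mog and Opalin.

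**Figure D2:**
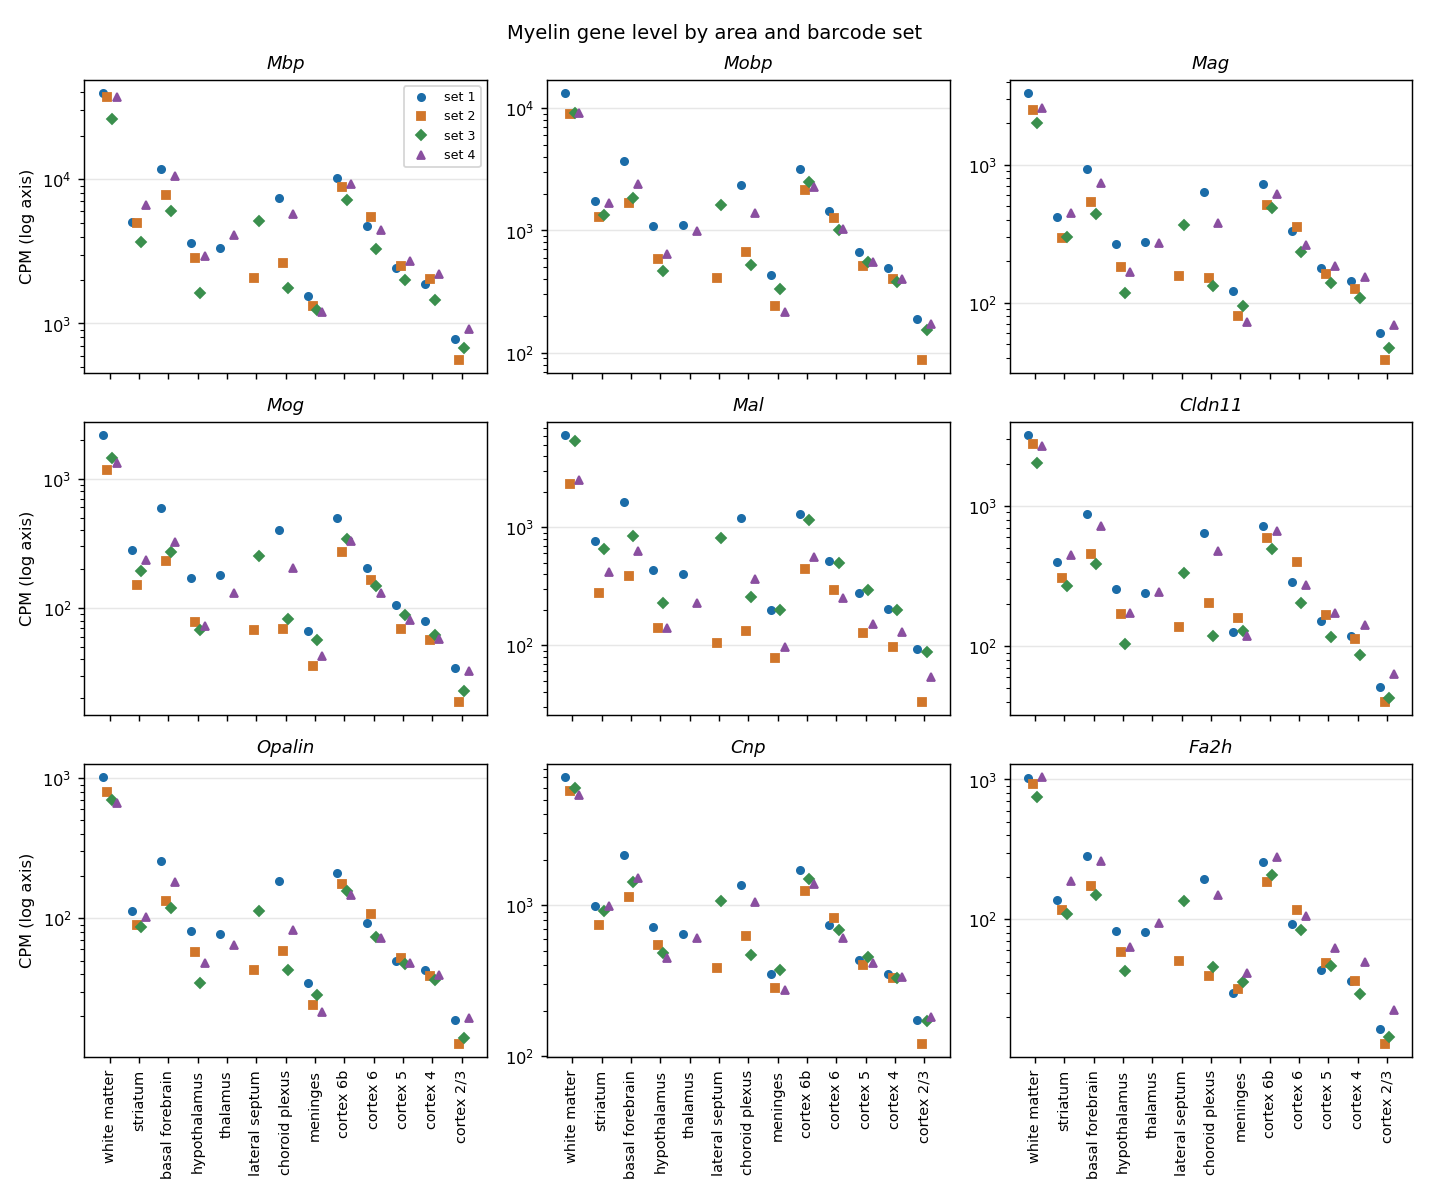
Level of each gene (CPM, log axis) by area, 1 panel per gene, with colours and marks for the 4 barcode sets; areas with under 30 spots in a set are left out. White matter is highest and cortical layer 2/3 lowest in every panel and set, with Mbp at 39398, 36918, 25851 and 36772 CPM in white matter.

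Through the cortex all 9 genes rose with depth, in the order of layers 2/3, 4, 5, 6 and 6b in all 36 pairs of gene and set. Spots were given to layers by marker scores, and 730 of 3572 cortical spots (20.4%) had a margin under 0.25 between the best 2 layers. Mbp was at 781, 562, 677 and 921 CPM in layer 2/3, at 2422, 2501, 2002 and 2699 CPM in layer 5 and at 10159.5, 8757, 7165 and 9202 CPM in layer 6b. Layer 6b lies on the white matter, and the part of spots that cover both was not tested. From layer 2/3 to 6b the members differed by 7.45 (Opalin, set 4) to 24.4 (Mobp, set 2) times, where 5.32%, 4.18%, 4.86% and 4.87% of all genes were at least 2-fold higher in layer 6b.

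Layers 5 to 6b together were higher than layers 2/3 and 4 by 2.70 (Opalin, set 4) to 4.89 (Mobp, set 2) times. All 9 passed the 2-fold rule in each set, against 2.82%, 2.4%, 2.23% and 2.3% of all genes. Mobp was at 4.17 (4.07 to 4.28), 4.89 (4.73 to 5.06), 3.68 (3.59 to 3.78) and 3.96 (3.82 to 4.11). Its intervals overlapped those of Fa2h in sets 1, 3 and 4, at 3.83 (3.49 to 4.20), 3.75 (3.43 to 4.10) and 3.57 (3.22 to 3.97), and that of Cldn11 in set 2, at 4.60 (4.33 to 4.89), so no gene was the steepest beyond counting error. Cnp was at 2.98, 3.38, 2.71 and 2.76, the flattest beyond counting error in set 2, and its intervals overlapped those of Opalin in the other sets.

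From layer 6b to white matter came a further step. Mog went from 501, 269, 342 and 333 CPM to 2174, 1169.6, 1454 and 1317 CPM, and Opalin from 211, 175, 158 and 146 CPM to 1012, 791, 694 and 662 CPM. The basal forebrain, named from cholinergic neuron markers, had Mbp at 11679, 7768, 6049 and 10494 CPM. This was above layer 6b in sets 1 and 4 and below it in sets 2 and 3.

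The striatum is crossed by myelinated fibre bundles. Mbp was at 5047, 4971, 3692 and 6568 CPM there and at 3586, 3286, 2475 and 3366 CPM in the cortex. Ratios of striatum to cortex ran from 1.36 (Opalin, set 2) to 2.24 (Mobp, set 4), so each member was higher in the striatum taken as a whole in each set. None of the 9 reached 2-fold in sets 1 to 3, where 5.39%, 5.3% and 5.11% of all genes did. In set 4 Mobp (2.24), Mog (2.22), Fa2h (2.16), Mal (2.13) and Mag (2.002) did, against 5.17% of all genes, and Cldn11 lay just under the line at 1.999.

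Different clusters made up the striatum of the sets. Cluster 5 lay in set 2 with 507 spots, cluster 22 in set 4 with 342, and cluster 0 mostly in sets 1 and 3 with 471 and 572. Cluster 3 lay in all sets, with 145, 156, 240 and 99 spots, and its Mbp level was 10252, 11679.9, 6288 and 16184 CPM. Mbp was lower in cluster 0 of sets 1 and 3, at 4271 and 3151 CPM, in cluster 5 of set 2, at 3937 CPM, and in cluster 22 of set 4, at 5292 CPM. Clusters 16 and 26 also lay in all sets. Cluster 16 had Mbp at 2883, 3396, 3124 and 2684 CPM, below the cortex in sets 1 and 4 and above it in sets 2 and 3. Cluster 26, with 39, 37 and 62 spots in sets 1 to 3, had Mbp at 2647, 2646 and 1484 CPM, below the cortex in each. Within the striatum the clusters thus differed by more than striatum and cortex did.

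At the surface and in the ventricles the members were measurable too. In the meninges Mbp was at 1548, 1326, 1234 and 1208 CPM and Cldn11 at 127, 158, 128 and 117 CPM. In the choroid plexus area Mbp was at 7344, 2641, 1751 and 5773 CPM, high in sets 1 and 4.

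Each set was next compared with the others, first over the whole section. Mal was at 981, 262, 592 and 399 CPM, with a ratio of highest to lowest set of 3.74 (3.69 to 3.79). Mog (2.54), Cldn11 (2.16), Mag (2.08) and Mobp (2.03) were also at least 2-fold apart, and the other 4 were not. These 5 of 9 stand beside 12.1% of all genes. Set 1, which had the largest share of white matter spots, was the highest set for all 9. Without set 1 only Mal was at least 2-fold apart, and without set 3 Mobp, Mog and Mal were. The sets did not cover the same areas, with 148, 0, 3 and 299 thalamus spots and 25, 137, 110 and 0 lateral septum spots. The part of the white matter share and of the areas covered in these ratios was not tested. In the spots outside white matter Mal (3.31) and Mog (2.23) were at least 2-fold apart, beside 11.8% of all genes. In layer 2/3 Mal was 2.81 (2.48 to 3.20) times apart, a wider range than that of 96.7% of 9694 genes. Mobp was 2.13 (1.97 to 2.32) times apart there, wider than 89.4% of them, an interval that spans its value over the whole section. Mal, but not Mobp, was at least 2-fold apart in each of the other layers. Its range was wider than that of 90.1%, 93.6%, 88.6% and 96.6% of genes in layers 4, 5, 6 and 6b.

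In white matter Mal was at 6031, 2331, 5400.0 and 2521 CPM, high in sets 1 and 3 and low in sets 2 and 4. Its highest level was 2.59 (2.52 to 2.65) times its lowest, a wider range than that of 92.8% of 10267 genes. Mal was the 1 member at least 2-fold apart there, beside 20.1% of all genes. Some myelin genes outside the 9 were also high in sets 1 and 3. Tspan2 was at 2720, 1114, 2130 and 1054 CPM in white matter and Anln at 248, 70.9, 176 and 86.8 CPM. Sox10 was higher in sets 2 and 4, at 190, 320, 176 and 354 CPM. These examples were picked after their values were seen. The other 8 members were 1.32 (Cnp) to 1.86 (Mog) times apart, around the median of 1.53 over all genes. Mal alone of the 9 was also past the rule in the striatum, at 2.77 times beside 10.8% of all genes, and in the cortex, at 2.45 times beside 11.1%. As a count, 1 of 9 is below the share of all genes in white matter and close to it in striatum and cortex.

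**Figure D3:**
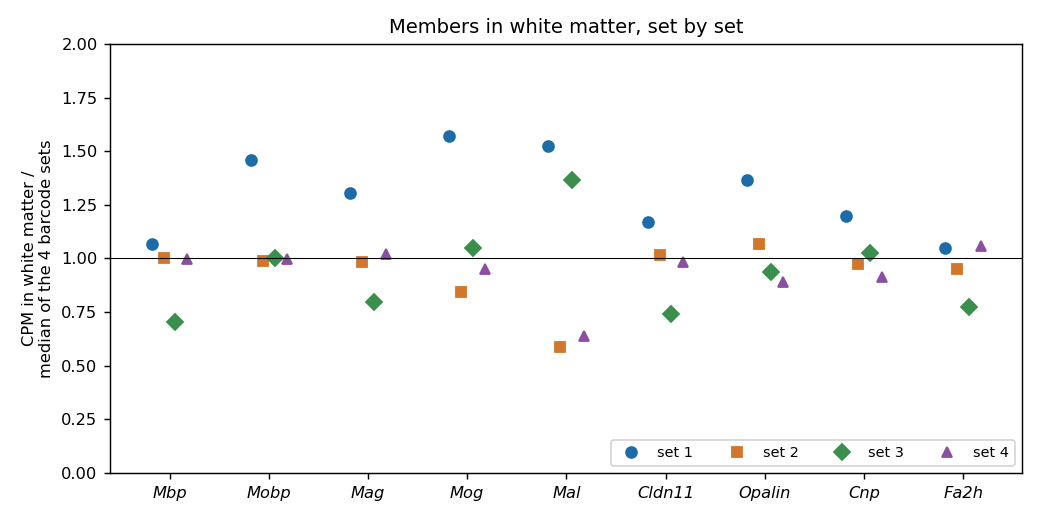
CPM of each gene in white matter divided by the median of the 4 barcode sets, with the line at 1 for that median and colours and marks for the sets. Mal spreads most (6031, 2331, 5400.0 and 2521 CPM), and the other genes range over 1.32 to 1.86-fold.

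Set against Mbp in the same spots, Mal had 15.3, 6.31, 20.9 and 6.85 counts per 100 Mbp counts in white matter, and the highest was 3.31 (3.22 to 3.40) times the lowest. In the striatum the values were 15.05, 5.53, 17.7 and 6.34, and in layer 2/3 they were 11.9, 5.90, 12.9 and 5.79. Sets 1 and 3 were thus the high ones in each of these areas. Probes of different genes count with different yield, so such a ratio is compared only between sets or areas.

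Most other members were also higher against Mbp in sets 1 and 3, by smaller ratios. Per 100 Mbp counts in white matter Mog stood at 5.52, 3.17, 5.62 and 3.58, Cnp at 17.8, 15.4, 23.1 and 14.5, Opalin at 2.57, 2.14, 2.68 and 1.8, Mobp at 33.7, 24.4, 35.3 and 24.7 and Mag at 8.42, 6.76, 7.85 and 7.04. Cldn11, at 8.10, 7.50, 7.82 and 7.31, and Fa2h, at 2.60, 2.51, 2.91 and 2.81, differed least.

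Other measures differed between the same sets. Sets 1 and 3 had the most counts, and their neuron markers in white matter summed to 2658 and 3316 CPM, below the 4591 and 4531 CPM of sets 2 and 4. The log2 ratio of the highest to the lowest Mal level in white matter was 1.37, and 1.06 with white matter taken from spots low in neuron genes. With all libraries thinned to the smallest it was 1.36, but such thinning leaves expected CPM unchanged. The part of depth and of neuron content in this ratio was not tested.

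The balance among the members changed between areas. Each gene's ratio to Mbp in an area was divided by its ratio in the white matter of that set, so 1 is the white matter balance. For Mobp it fell to 0.713 (0.677 to 0.752), 0.642 (0.597 to 0.689), 0.642 (0.607 to 0.678) and 0.751 (0.704 to 0.80) in layer 2/3. In layer 6b it was 0.931, 1.00, 0.991 and 1.00, and in the striatum it was 1.03, 1.07, 1.03 and 1.03, with the interval above 1 in each set. Mobp was therefore low against Mbp in the upper cortex, where both were scarce. Other members varied in layer 2/3. In set 3 Mog was at 0.593 and Mal at 0.618, while Mog was at 1.06 in set 2 and Opalin at 1.18 in set 4. Such a ratio does not tell a lower level of the member from a higher level of Mbp.

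Cnp went the other way, at 1.25 (1.19 to 1.32), 1.39 (1.31 to 1.48), 1.10 (1.04 to 1.16) and 1.36 (1.28 to 1.45) in layer 2/3 and at 1.28, 1.38, 1.31 and 1.57 in the meninges. Cldn11 was above its white matter balance in the meninges of sets 2, 3 and 4, at 1.59 (1.44 to 1.75), 1.33 (1.19 to 1.47) and 1.33 (1.14 to 1.55), and not beyond its interval in set 1, at 1.01 (0.915 to 1.12). Claudin 11 is also known from the arachnoid barrier of the meninges. Mal lay below 1 in layers 4, 5, 6 and 6b of every set, and in layer 6b it was at 0.830, 0.807, 0.765 and 0.889. By value, intervals aside, Mag, Cldn11 and Opalin were also below 1 in layer 6b of every set.

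**Figure D4:**
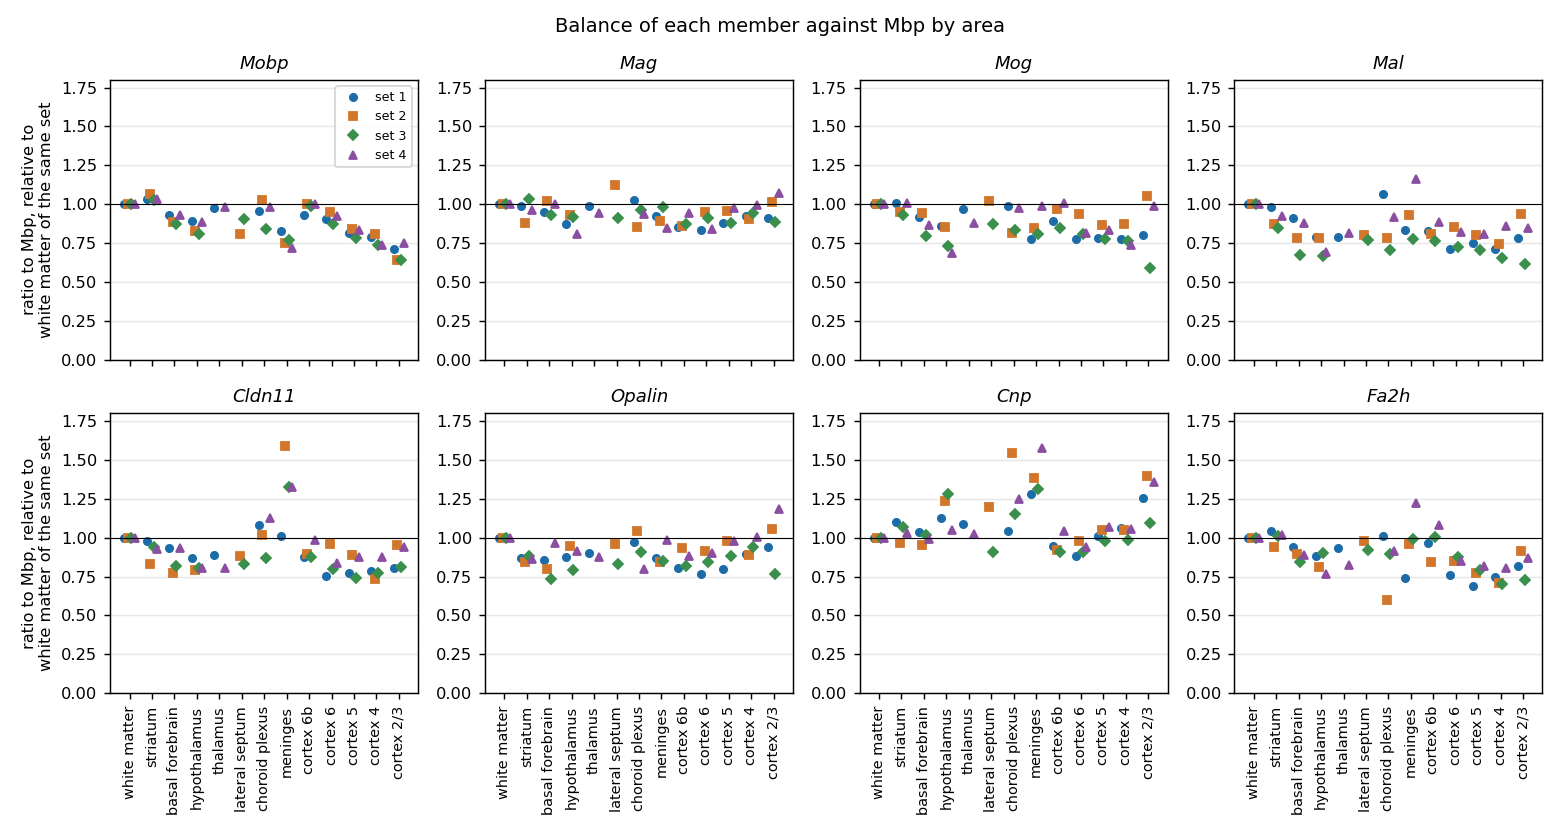
Ratio of each gene's counts to Mbp counts in an area, divided by the same ratio in the white matter of that set; the line at 1 is the white matter balance, and colours and marks are the 4 barcode sets. In cortical layer 2/3 Mobp stands at 0.713, 0.642, 0.642 and 0.751 and Cnp at 1.25, 1.39, 1.10 and 1.36, and Cldn11 reaches 1.59 in the meninges of set 2.

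Over 48 pairs of area and set, which share libraries, each gene's log2 level was correlated with the mean of the other 8, as a description. Pearson's r was 0.942 for Mal and 0.983 (Cldn11) to 0.995 (Mag) for the others. Of 10318 genes, those most like the mean of the 9 included Ermn (0.993), a cytoskeletal protein of myelin, Myrf (0.988), Gpr37 (0.987), Tmem88b (0.986) and Ugt8a (0.985), which makes galactolipids. Gjc3 (0.984), Plekhh1 (0.984), Nipal4 (0.983) and Sec14l5 (0.981) followed. Ermn, Gpr37 and Tmem88b are among the markers that named white matter, so their likeness is not independent of it.

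Of 32 other myelin gene names listed 30 were in the table, and 28 of these were at least 2-fold higher in white matter in all 4 sets. The median ratio of the 30 was 6.01. In single sets 5.72% to 7.53% of all genes that reached 10 CPM passed this rule. White matter was named from markers that include myelin genes, so passing is not independent of the naming. All 6 lipid genes passed, among them Ugt8a at 8.31, 9.52, 9.41 and 7.97 times and Pllp (plasmolipin) at 6.85, 7.86, 7.50 and 6.01 times. All 8 transcription factors passed, with Myrf at 7.65, 9.77, 8.47 and 7.12 times and Olig1 at 4.90, 5.73, 5.15 and 3.94 times. Olig1 thus lay below the range of the 9 members in each set.

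Of 9 adhesion and membrane genes 8 passed, with Tspan2 at 7.91, 9.16, 9.14 and 6.64 times and Nfasc (neurofascin, which neurons also make) at 3.51, 3.27, 3.73 and 2.66 times. The exception was the adhesion gene Cadm4, at 1.77, 1.66, 1.64 and 1.62 times. Of 7 cytoskeletal and cytosolic genes 6 passed, with the carbonic anhydrase gene Car2 at 6.03, 6.49, 6.04 and 5.36 times. The exception, named after its values were seen, was the tubulin-binding gene Tppp at 2.19, 1.98, 1.99 and 1.87 times. The 9 genes listed as oligodendrocyte precursor markers summed to 3.47 to 5.04 times their level elsewhere. They include Enpp6, a leading gene of white matter cluster 10, and the sum does not show which of them were higher. Markers of microglia summed to 1.58 to 1.87 times and those of astrocytes to 1.12 to 1.504 times.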

How the data were processed

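The authors deposited 1 table of raw counts per gene and spot for the Visium CytAssist sections. Per the submitters' processing notes Space Ranger and Seurat were used, and their versions, the genome build and the probe set are not given in the sources used here. No value was below 0 or fractional. There were 4744 distinct barcodes, and 1613 of them were shared by the 4 sets.

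Spots with under 500 counts (1 spot) were left out. Counts were scaled to 10000 per spot, put on a log scale and centred by gene in every set. Leiden clusters (resolution 0.8) used 2000 variable genes, 30 principal components and 15 neighbours (scanpy 1.11.5, leidenalg 0.10.2). An area name needed 3 markers at least 2-fold higher, a mean log2 fold of at least 0.5 (10 CPM added) and a marker among the 10 leading genes. Of 29 clusters 5 stayed unnamed. Cortical spots took the layer whose markers had the highest z-score. No doublet caller was run on spots.

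A level is the summed count of an area per 1000000 counts there. Levels have Poisson, shares Clopper-Pearson and ratios conditional binomial exact intervals at 95%, and balance values normal intervals on the log scale. All cover counting error only. Named genes were the 9 members, the 10 genes most correlated with their mean in log2(CPM + 1), of which 9 are reported here, and up to 4 examples by mean CPM from each group of other myelin genes. Members and lists were chosen with earlier results of these data known. In simulated data for white matter over other spots, 100% of genes at 4-fold and 0% at 1.5-fold were called in each set. These data held counting error only, at the large totals of the areas, so the outcome follows from the 2-fold cut. It does not test variation between spots or sections.

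The planned edgeR and DESeq2 tests of genotype were not run, as no barcode ending matches a label. edgeR 4.0.16 gave scaling factors for alternatives.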

Additional observations from a re-analysis of the deposited data

How the results depend on the processing

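In 468 recomputed ratios of white matter to other spots each member stayed at least 2-fold higher, at 2.37 to 3.90 on the log2 scale. Of these ratios 104 stayed within the counting interval of the reported ratio, 364 moved outside it and 0 reversed. Mal had the widest range of the 9 between sets in white matter in all 15 settings, at 1.05 to 1.65. Of 110 recomputed summary values 85 stayed within their margin, 25 moved and 0 reversed. For most of these values the margin was the whole range over the 4 sets as reported, which is wider than counting error. What caused the moves was not tested.

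The median share of white matter spots was 5.82% as reported, 3.56% at resolution 1.2, 4.28% from low neuron genes and 3.19 to 7.40% with 1 set left out. The median log2 ratio of white matter to other spots was 3.16 as reported, 2.88 with oligodendrocyte genes in the clustering, 2.85 with at least 2000 counts per spot, 2.91 with areas from marker scores, 2.98 with TMM scaling and 2.87 to 3.26 with 1 set left out. That of deep to upper layers was 1.76, 2.12 without centring and 1.53 to 1.89 with 1 set left out, and that of striatum to cortex 0.76 and 0.59 to 0.97. The median Mobp balance in layer 2/3 was 0.678, 0.776 with marker scores and 0.639 to 0.754 with 1 set left out.

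The members' median log2 range between sets in white matter was 0.61, 0.80 with oligodendrocyte genes used, 0.87 with at least 2000 counts, 0.85 with TMM scaling and 0.40 to 0.66 with 1 set left out. Members at least 2-fold apart there numbered 1, but 2 with at least 2000 counts (Mag and Mal), 3 with TMM scaling (Mog, Mal and Opalin) and 1 with any 1 set left out. Over the whole section they numbered 5, and 1 to 5 with 1 set left out.

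Without the filter on low genes 17.9%, 19.2%, 20.5% and 24.9% of all genes were at least 2-fold higher in white matter, in place of 7.48%, 6.05%, 7.53% and 5.72%, and 42.0% and 37.9% were at least 2-fold apart between sets in white matter and over the whole section, in place of 20.1% and 12.1%. No paired analysis was possible because the barcode endings carry no replicate number or genotype, so the planned edgeR, DESeq2 and replicate block fits were not run. With 1 library per set, animal, section and plane cannot be told apart.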

Other observations

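Of the clusters given no area name, clusters 15, 27 and 28 had Mbp levels between those of the striatum and those of white matter. Cluster 15 had all 10 white matter markers at least 2-fold higher but none among its 10 leading genes, which start with Spp1, Etnppl and Padi2. Mbp stood there at 13884, 9357 and 17438 CPM in sets 1, 3 and 4, with 118, 118 and 123 spots. This was above layer 6b and the basal forebrain of the same sets. Cluster 15 was counted among the other spots in the white matter ratios. Cluster 27, led by Pvalb and Six3, had 0 of the 10 white matter markers at least 2-fold higher, and Mbp stood there at 7868 and 12462 CPM in sets 1 and 4. Cluster 28 lay in set 3, with Mbp at 5097 CPM.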
